A study of Sus scrofa with 8 samples.

Results

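Regions open only in proliferation were chromatin regions with an ATAC-seq peak in every library of proliferating porcine muscle satellite cells and in no library of differentiating ones. Merging the peaks of all 8 lists on chromosomes 1 to 18 and X, at an overlap of 1 bp or more, produced 178498 regions. The regions were selected on the peak calls themselves, a region being chosen when all 4 libraries at 0 h had a peak over it and none of the 4 libraries at 60 h did. This left 10145 regions, 5.68% of all regions and 11.2% of the 90579 regions called in all 4 libraries at 0 h. Since the calls of all 8 libraries chose them, their presence at 0 h and absence at 60 h is a description and carries no test. No peak value exists at 60 h for any of them, and "open only" here means called only at 0 h.

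Satellite cells are the stem cells of skeletal muscle. In culture they first divide as myoblasts, under growth factors such as hepatocyte growth factor and fibroblast growth factors, and express the transcription factor PAX7. They then leave the cell cycle, switch on myogenin and sarcomere genes, and fuse into myotubes. ATAC-seq uses a transposase that inserts sequencing adapters where DNA is accessible, so its peaks mark promoters, enhancers and other open sites. CBP, the product of CREBBP, acetylates histones and acts as a coactivator of myogenic transcription factors.

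The libraries form 4 groups of 2, labelled WT and CBP, at 0 h (proliferation) and at 60 h (differentiation). A treatment text shared by all groups names SGC-CBP30, an inhibitor of the bromodomains of CBP and EP300, at 5 uM/ml, given over 48 h of proliferation and 60 h of differentiation. Which groups received it is not stated, so WT and CBP are used as labels only. A cell line called C3H is named although the organism is pig, and the peaks are placed on the pig build Sscrofa11.1. Separate cultures or animals are not named for the replicates, so a p-value here measures only the spread between libraries, which may be technical.

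The 0 h libraries were the deeper ones, and their lists were longer. They held 121757 to 135528 peaks against 82696 to 88871 at 60 h. Relative depth, read from each list's most frequent background level, was 1.43 to 2.09 times that of the shallowest library at 0 h and 1 to 1.21 times at 60 h. Depth thus moves with time in these data, and a value that bears on it was computed for each region.

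Each region's 0 h peak was scaled down to the depth of the shallowest library and compared with the strictest of the lists' own thresholds. At that depth 9085 of the 10145 regions (89.6%) would still pass in all 4 libraries at 0 h, against 98.2% of the 80434 regions that were called in all 4 libraries at 0 h and in at least 1 at 60 h. Those 80434 are named kept regions below. At the depth of the deepest 60 h library 9620 regions (94.8%) would pass. Here and below, passing refers to expected reads, scaled without counting noise. A peak near the threshold could therefore still be missed in a library of that depth. A stricter comparison, which gives every library the same number of peaks (its strongest 82696), left 2492 regions that met the rule, of which 2251 overlapped the original ones. The same setting counted 1345 regions in the reverse direction, called in all 4 libraries at 60 h and none at 0 h, against 233 with the lists as deposited.

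The rule was also applied with 1 library left out, and the calls in that library were read. When 1 library at 60 h was left out and the rule applied to the other 7, the share of chosen regions with a peak in the left-out library was 21.4% for WT replicate 1, 16.0% for WT replicate 2, 16.5% for CBP replicate 1 and 16.1% for CBP replicate 2. Among all regions called in the 4 libraries at 0 h, the share with a peak in these libraries was 71.8% to 74.8%. When a 0 h library was left out, 74.7% to 90.0% of the chosen regions had a peak in it, against 92.5% to 97.6% of all regions called in the other 3. The chosen regions thus had a peak in the left-out library less often at either time. They were not matched to the comparison regions for peak strength.

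The choice in 1 label was also read in the other. In WT alone, 26884 regions (15.1% of all regions) were called in both libraries at 0 h and neither at 60 h, and 10145 of them (37.7%) met the same condition in CBP. Of the 106384 regions called in both WT libraries at 0 h, 17.5% met it in CBP. In CBP alone 26552 regions (14.9%) met the condition, and 38.2% of these met it in WT, against 16.6% of the 103237 regions called in both CBP libraries at 0 h. The regions described here are the overlap of these 2 sets. Of the regions chosen in WT, 63.6% were called in both CBP libraries at 0 h and 31.7% in at least 1 at 60 h, so the overlap was also limited by calls missing at 0 h, and it is not read as a difference between the labels.

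These were weak to middling peaks. Their median −log10 q, the authors' measure of peak strength, was 7.59 and 8.27 in WT replicates 1 and 2 and 9.28 and 7.08 in CBP replicates 1 and 2 at 0 h. Kept regions had medians of 18.99, 20.5, 21.3 and 16.7 in the same libraries. The median number of reads piled up at the summit, recovered from the authors' fold and p-value, was 23, 27, 27 and 20, against 44, 51, 51 and 38 in kept regions. Summit reads are printed as recovered, not scaled for depth, so the deeper WT replicate 2 and CBP replicate 1 tend to have more. Regions just outside the rule gave medians on either side. Those with a call in exactly 1 library at 60 h (8646 regions) had a −log10 q of 8.93, 9.77, 10.8 and 7.88, and those called in exactly 3 libraries at 0 h and none at 60 h (8710 regions) had 5.60, 5.91, 6.18 and 5.33.

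Ranked by 0 h strength (the lowest within-list percentile of −log10 q over the 4 libraries) and cut into 10 equal classes, regions called in all 4 libraries at 0 h met the rule in 36.0% of cases in the weakest class and in 0% in the strongest. The 5 weaker classes held 9642 of the regions (95.04%), and the 3 strongest classes held 36.

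The regions lay away from gene ends. RefSeq's table gives each gene's start and end but no strand, so a promoter cannot be told from the far end of a gene, and both are called gene ends. Within 1 kb of the end of a protein-coding gene lay 455 regions, or 4.48% (95% Wilson interval 4.10 to 4.91, counting error only), against 17.9% of kept regions and 24.8% of regions called in all 8 libraries. A further 5287 (52.1%) lay inside a gene and 4403 (43.4%) between genes, where kept regions had 43.5% and 38.6%. Regions with a call in exactly 1 library at 60 h had 51.6% and 42.7%. Those called in exactly 3 libraries at 0 h and none at 60 h had 51.4% and 43.4%, so these shares were not particular to the rule. The median distance to the nearest gene end was 30665 bp, and 20367.5 bp in kept regions. In the sets just outside the rule it was 29536 bp and 28611 bp, in the same order. Kept regions were also wider (1078 bp against 654 bp in the median), and distances ran from a region's nearer edge. Measured from the region's centre, the gene-end shares were 3.12% and 15.6%.

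The gene-end share was also lower at like strength. In each of the 8 weaker classes of 0 h strength the gene-end share was lower in regions open only in proliferation than in kept regions. In the weakest class the shares were 5.09% and 8.21%, in the fifth 2.80% and 10.2%, and in the eighth, which holds 30 of the regions, 3.33% and 18.1%. With equal peak numbers the shares were 3.61% and 21.4%. Regions just outside the rule had shares close to that of the regions themselves. These were 5.75% with a call in exactly 1 library at 60 h, and 5.14% with calls in exactly 3 libraries at 0 h and none at 60 h.

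**Figure D1:**
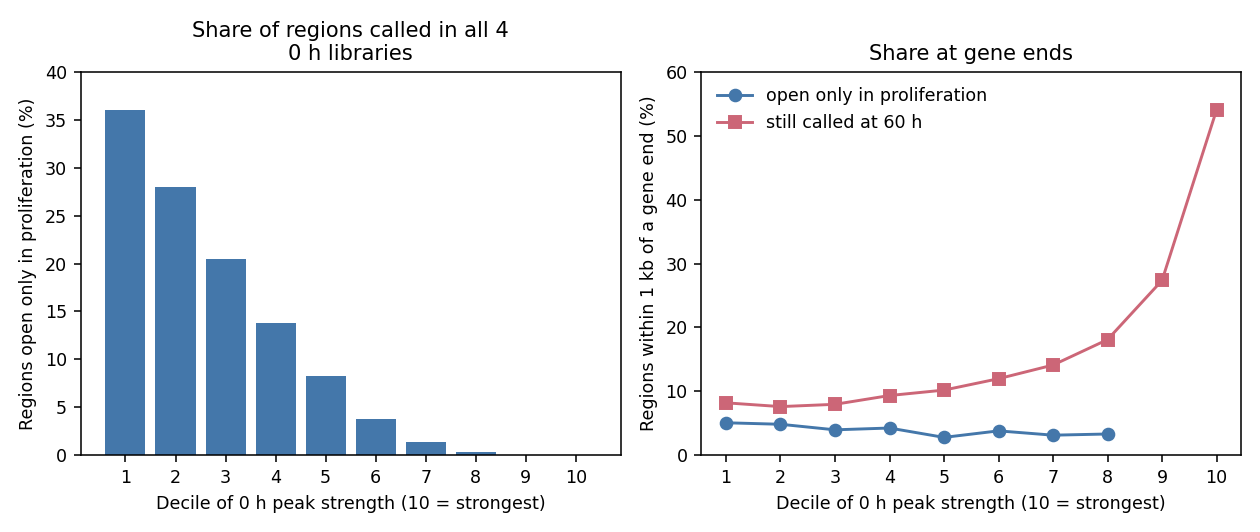
Left, bars give the share (%) of regions called in all 4 libraries at 0 h that were open only in proliferation, by class of 0 h peak strength (10 is the strongest), falling from 36.0% to 0%. Right, points give the share (%) of regions within 1 kb of a gene end in the same classes, for regions open only in proliferation (blue, not drawn in classes 9 and 10, which hold 6 and 0 of them) and kept regions (red), and the blue points lie below the red ones in all 8 classes drawn.

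Along the genome the regions were spread widely. Their share of the regions called in all 4 libraries at 0 h ranged from 8.98% on chromosome 12 to 12.8% on chromosome 11. The nearest other region with a peak at 60 h was 4481 bp away in the median, and 5060.5 bp away from kept regions. The nearest region open in all 8 libraries was 10819 bp away, and 10503 bp from kept regions. The nearest other region open only in proliferation was 57610 bp away, and 59014.5 bp from kept regions, with 13.7% and 12.3% within 10 kb. Joined across gaps of up to 20 kb, 7772 of the regions had no partner, 927 groups held 2, 150 held 3, 16 held 4 and 1 held 5. Kept regions were not grouped in this way. The group of 5 lay inside GALNT7 on chromosome 14, from 16789354 to 16812739, where all 5 regions called in the 4 libraries at 0 h had no call at 60 h. A group of 4 among 5 such regions lay at SDC1, the heparan sulphate proteoglycan syndecan 1, on chromosome 3 from 118033390 to 118075081. These groups were picked out after their values were seen.

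The strongest region lay inside UBE2E2, a ubiquitin-conjugating enzyme, on chromosome 13 from 10346829 to 10347883. Its −log10 q was 33.7 and 42.5 in WT replicates 1 and 2 and 39.6 and 38.7 in CBP replicates 1 and 2, with 47, 60, 54 and 49 reads at the summit in that order. All 4 values were at or above the 85.0th percentile of their own list. The second lay inside NRDE2, a nuclear RNA surveillance factor, on chromosome 7 from 112078570 to 112079581, with 61 and 59 summit reads in WT and 66 and 53 in CBP. Inside MAP2K2, the MAP kinase kinase MEK2 that passes growth factor signals to ERK, a region on chromosome 2 from 74639045 to 74640639 had the most summit reads of the 10 strongest (85 and 99 in WT, 79 and 64 in CBP). It also had the lowest fold over local background of the 10, at 5.31 to 5.95, where the UBE2E2 region had 10.7 to 12.5.

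The other strong regions inside genes lay in FBXL7, a subunit of ubiquitin ligases, PCCA, a subunit of mitochondrial propionyl-CoA carboxylase, NKAIN2, a membrane protein that binds the sodium pump, and STIL, a protein needed for centriole duplication. The STIL region, on chromosome 6 from 164223357 to 164224274, had −log10 q values of 32.3 and 43.3 in WT and 27.9 and 30.5 in CBP, so both CBP values lay below both WT values. At NKAIN2, on chromosome 1 from 38071306 to 38072509, the order was the reverse, with 26.9 and 30.0 in WT and 35.6 and 39.4 in CBP. These values were not scaled for depth, which differed between the libraries. In fold over local background the labels overlapped at both regions. At STIL the folds were 9.38 and 10.42 in WT and 8.68 and 10.94 in CBP. At NKAIN2 they were 8.96 and 9.32 in WT, and CBP replicate 1 had 8.94. Neither order is therefore read as a difference between the labels. Of the remaining 3, all between genes, 1 lay 7190 bp from ANP32A, a nuclear phosphoprotein, and the others lay 131482 bp from ZNF608 and 178387 bp from ASB3.

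**Figure D2:**
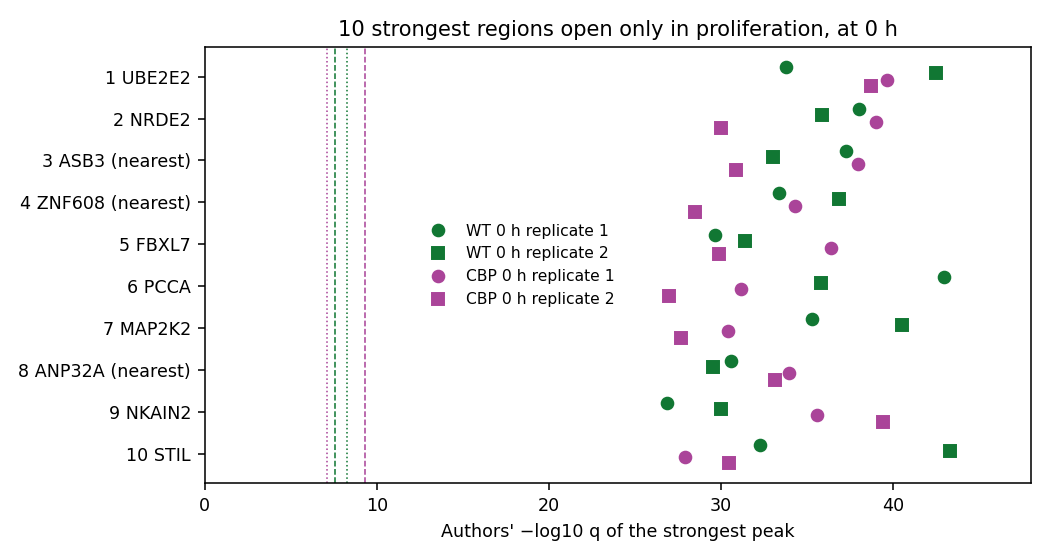
The 10 strongest regions open only in proliferation, named by the gene they lie in or, where marked, the nearest gene. Each point is the authors' −log10 q of 1 library at 0 h (circles replicate 1, squares replicate 2, green WT, purple CBP), and vertical lines mark each library's median over all 10145 regions (dashed replicate 1, dotted replicate 2), which lie at 7.08 to 9.28, below every point.

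Few strong regions lay at gene ends. The strongest of these, chosen after their values were seen, lay at SHF, an adaptor protein of growth factor receptors, on chromosome 1 from 126568887 to 126570126, 531 bp from an end of the gene. It had 91 and 104 summit reads in WT and 112 and 96 in CBP. At ALDH1A1, a retinaldehyde dehydrogenase that makes retinoic acid, a region on chromosome 1 from 226164332 to 226165293 lay 985 bp from a gene end and had 30 and 31 reads in WT and 39 and 32 in CBP.

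To describe genes, each region was linked to the protein-coding gene with the nearest end within 50 kb. This linked 6291 of the regions, which is 5.47% of the 114921 linked regions of all kinds and 10.2% of the linked regions called in all 4 libraries at 0 h. At least 1 such region was linked to 4684 of 17508 genes (26.8%). Most of these genes had only 1 (3448 genes) or 2 (949), and 12 genes had 5 or more. Genes with many linked regions can have more by number alone, so most counts are given beside the gene's linked regions. For some genes the regions called in all 4 libraries at 0 h are given too, and some counts stand alone.

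GALNT7, an enzyme that adds N-acetylgalactosamine to proteins in O-linked glycosylation, had the most, with 8 of 24 linked regions and 8 of the 16 called in all 4 libraries at 0 h. All 8 lay inside the gene, on chromosome 14 between 16719312 and 16812739. The region nearest to a gene end, 2140 bp away, had 38 and 41 summit reads in WT and 36 and 38 in CBP. The region with the most reads in any library had 33 and 46 in WT and 51 and 37 in CBP, and the last along the chromosome 30 and 40 in WT against 26 and 13 in CBP. All 8 would pass at the shallowest depth, and 4 met the rule with equal peak numbers.

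ARHGAP26, a GTPase-activating protein, had 7 of 26, and GPD2, the mitochondrial glycerol-3-phosphate dehydrogenase, had 6 of 24. At ARHGAP26, 1 region lay inside the gene and 6 outside it, 3 beyond each end. Of these, the 3 after the gene on the chromosome were the higher ones, with 31 to 58 summit reads over the 4 libraries against 14 to 36 in the 3 before it. At GPD2, 4 lay inside the gene and 2 before it. CNTN3, a contactin of the immunoglobulin family of cell adhesion molecules, had 5 of 9 linked regions and 5 of the 7 called in all 4 libraries at 0 h. Among genes with at least 5 such regions only MARCH4, a membrane-bound ubiquitin ligase, had a higher share (4 of 5).

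**Figure D3:**
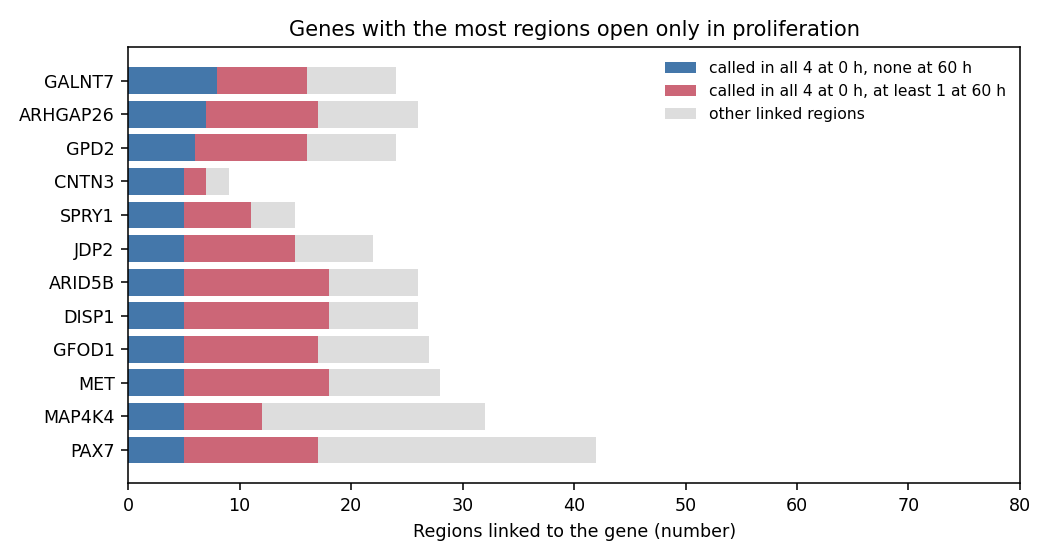
Bars give the number of linked regions of the 12 genes with the most regions open only in proliferation (blue), with the kept regions (red) and all other linked regions (grey). GALNT7 had 8 of 24, while CNTN3, with 5 of 9, had few other regions.

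PAX7, the marker and maintenance factor of the satellite cell, had 5 of 42 linked regions and 5 of the 17 called in all 4 libraries at 0 h. Of these, 1 lay before the gene, 2 inside it (chromosome 6, 77160827 to 77268626) and 2 after it. The narrow region from 77174371 to 77174602 inside the gene had the most summit reads, 82 and 98 in WT and 92 and 89 in CBP. The other 4 had 16 to 35 reads in every library. WT and CBP values overlapped at 4 of the 5 and were 1 read apart at the first. Only 3 of the 5 would pass at the shallowest depth, and 1 met the rule with equal peak numbers.

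SPRY1, which dampens signals from receptor tyrosine kinases and is expressed in quiescent satellite cells, had 5 of 15 linked regions and 5 of 11 called in all 4 libraries at 0 h. None lay inside the gene as annotated (chromosome 8, 100449476 to 100863780). The pair farthest before it had more summit reads in WT than in CBP. From 100407143 to 100407864 these were 32 and 34 in WT and 18 and 13 in CBP, and from 100409514 to 100410379 they were 38 and 46 against 30 and 19. At the other 3 the WT and CBP values overlapped or were 2 reads apart (19 to 40 in WT, 15 to 33 in CBP). All 5 would pass at the shallowest depth.

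Among the growth factor receptors, MET, the receptor of hepatocyte growth factor that activates satellite cells, had 5 of 28, all inside the gene on chromosome 18 between 29435120 and 29526514. The first had 34 and 40 summit reads in WT and 32 and 28 in CBP, and the other 4 had 14 to 31 over the 4 libraries. FGFR1, a receptor of fibroblast growth factors, had 4 of 17, with 2 inside the gene and 2 before it. Its highest, on chromosome 15 from 48061690 to 48062434, had 31 and 35 reads in WT and 47 and 29 in CBP. EGFR had 2 of 30. The growth factor receptor and feedback list had 23 of 302 linked regions (7.62%), where all linked regions had 5.47%. These were linked to 11 of its 20 genes, and FGFR4, PDGFRA, ERBB2 and the ligands HGF and FGF2 had none. SPRY1 was in this list and in that of satellite cell genes, so its 5 regions count in both.

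**Figure D4:**
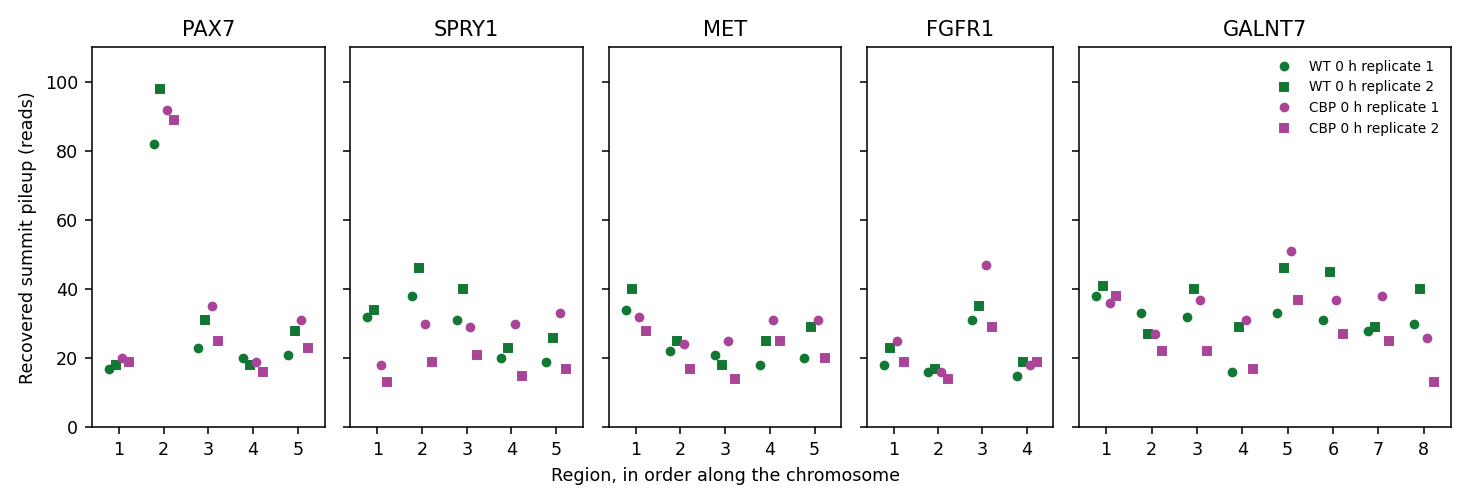
Points give the summit reads, recovered from the authors' values and not scaled for depth, of each region open only in proliferation at PAX7, SPRY1, MET, FGFR1 and GALNT7, in order along the chromosome, for the 4 libraries at 0 h (circles replicate 1, squares replicate 2, green WT, purple CBP). The second PAX7 region stands at 82 to 98 reads, and the first SPRY1 region has both WT values (32 and 34) above both CBP values (18 and 13).

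Of the myogenic regulators, the transcription factors that set and execute the muscle programme, 12 of 198 linked regions (6.06%) were open only in proliferation, near the 5.47% of all linked regions. The list had 2 of 149 with equal peak numbers (1.34%, against 1.75% of all linked regions) and 1 of 111 at a fold of at least 4 (0.901%, against 4.35%). MYOD1 and MYF5, which commit cells to the muscle lineage, and MYOG, which drives terminal differentiation, had none among 8, 5 and 10 linked regions. MYF6, a later myogenic factor beside MYF5, had 2 of 7, 4200 and 4973 bp past its end on chromosome 5 and inside the uncharacterised gene LOC110260827, with 31 to 51 summit reads. TEAD1, a DNA-binding partner of YAP, had 3 of 27, and EYA1, a transcriptional coactivator and phosphatase, had 2 of 14. Satellite cell genes had 19 of 273 (6.96%), of which PAX7 and SPRY1 gave 10. CALCR, the calcitonin receptor of quiescent satellite cells, had 1, with 15 to 21 reads. That region would not pass at the shallowest depth, and CALCR had 0 with equal peak numbers.

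In the Notch pathway, which keeps satellite cells undifferentiated, the list had 11 of 191 (5.76%), near the 5.47% of all linked regions. Its ligand JAG1 had 3 of 14, inside the gene, with 39 to 51 reads, and its ligand DLL4 had 1. The target HEY1, a transcriptional repressor, had 2 of 14, of which the region on chromosome 4 from 56838607 to 56839148 had 34 and 49 reads in WT and 47 and 29 in CBP. NOTCH3 had none among 6. In the BMP and TGF-beta list (23 of 310, 7.42%), BMPR2, a receptor, had 4 of 12, the ligand TGFB2 3 of 26, and the inhibitors SMAD6 and SKI 3 each, of 33 and 21. The 4 BMPR2 regions lay inside the gene and had 14 to 33 reads. With equal peak numbers the list had 3, and BMPR2, TGFB2, SMAD6 and SKI had 0 each.

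For the Wnt list the count was 16 of 289 (5.54%), also near the share of all linked regions. It was led by LRP5, a co-receptor, with 3, and by the ligand WNT7A and the enhancer of Wnt signalling RSPO3 with 2 each. The WNT7A region on chromosome 13 from 70650633 to 70651716 had 47 and 40 reads in WT and 48 and 36 in CBP. Adhesion and fusion genes had 21 of 270 (7.78%), with 4 each at CDH2, the cadherin that joins myogenic cells, and ITGA6, a laminin-binding integrin chain. The strongest of the ITGA6 regions, on chromosome 15 from 78521151 to 78521719, had 60 and 62 reads in WT and 54 and 50 in CBP.

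Cell cycle genes had 11 of 146 (7.53%), linked to 8 of 24 genes, and CCNA2, CCNB1, CDK1 and TOP2A had none. CCND1, the cyclin that carries cells through G1, had 2 of 10, and its region on chromosome 2 from 3635689 to 3636031, 2309 bp past the gene, had 78 and 101 reads in WT and 106 and 75 in CBP. MKI67, which encodes the proliferation antigen Ki-67, had 2 of 6, and RB1, the retinoblastoma protein that restrains cell cycle entry, had 2 of 8. With equal peak numbers the list had 2 of 101 (1.98%, against 1.75% of all linked regions), and MKI67 and RB1 had 0 each. Sarcomere genes, which encode the contractile apparatus, had 7 of 224 (3.13%), the lowest share of the lists as deposited but of none of the alternatives run, with 2 at MYOM1, a protein of the M band. In the AP-1 and immediate early list, factors induced quickly by growth signals, 7 of 151 (4.64%) were counted, 2 of them at MYC. JDP2, a repressor that pairs with AP-1 proteins and was outside that list, had 5 of 22.

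Acetyltransferases and bromodomain proteins had 9 of 198 (4.55%). CREBBP, which encodes CBP, had 2 of 17, both inside the gene on chromosome 3, with 16 to 28 reads, and EP300, its close relative, had none among 8. KAT2B and KAT6B, further acetyltransferases, had 2 each. Housekeeping genes had 4 of 71 (5.63%), close to the 5.47% of all linked regions. Against that background most lists stood within a few percentage points, and a list's share was not tested.

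Markers of other cell types were also among the genes with such regions. The share was 8.18% for endothelial markers (9 of 110 linked regions), 7.14% for adipocytes (6 of 84), 5.97% for neural and Schwann cells (4 of 67), 3.85% for fibroblasts (5 of 130) and 3.77% for immune cells (2 of 53). Of the linked regions called in all 4 libraries at 0 h the shares were, in that order, 19.1%, 13.0%, 12.1%, 8.93% and 8.70%. Over all genes that share was 10.2%. Such regions were linked to 5 of the 10 endothelial and 3 of the 10 adipocyte markers. CDH5, the endothelial cadherin, had 3 of 19, with 11 to 25 reads, and 0 at a −log10 q of at least 5. PECAM1 had 2 of 14, and PPARG, the main adipogenic transcription factor, had 3 of 22. The endothelial markers KDR, VWF and ERG had none among 7, 13 and 20, and the adipocyte markers ADIPOQ and LEP none among 10 and 14. Whether RNA or protein of these genes was present is not measured by these data, and the part of other cells in the regions was not tested. With equal peak numbers endothelial, immune, neural, housekeeping and AP-1 genes had 0 such regions, and all linked regions had 1.75%. In that setting the highest shares were in the Notch list (6 of 144, 4.17%) and the growth factor receptor list (8 of 229, 3.49%).

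**Figure D5:**
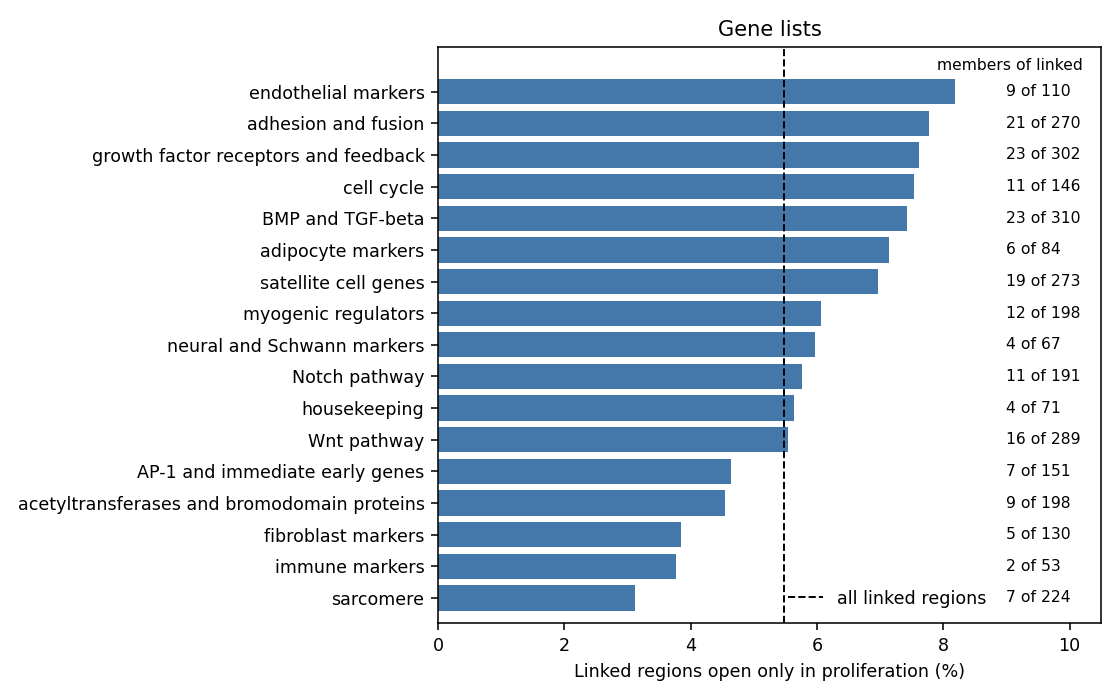
Bars give, for 17 gene lists, the share (%) of linked regions that were open only in proliferation, with the counts at the right, and the dashed line marks the share over all linked regions (5.47%). The shares run from 3.13% to 8.18% with the lists as deposited, and the order of the lists changed with the processing.

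WT and CBP at 0 h were compared within the regions, since the rule treats both labels alike and did not use this contrast. Summit reads were put on a log2 scale, centred on each library's median and tested with limma over all 90579 regions called in the 4 libraries at 0 h, with Benjamini-Hochberg adjustment over all of them. Of the 10145 regions, 181 were higher in CBP (1.78%, where 1.22% of all regions tested were) and 153 were lower (1.51%, against 1.93%). The median log2 difference between CBP and WT was 0.05 in the regions and 0.04 over all regions tested. Between single replicate libraries the median absolute log2 difference was 0.20 in WT and 0.21 in CBP. Between the labels it was 0.21, but there each side was a mean of 2 libraries. A difference of means varies less than one of single libraries, so these values are not like for like.

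These calls rest on how strength was measured. With the authors' fold in place of summit reads, limma called 0 regions in either direction (961 higher and 901 lower at an unadjusted p under 0.05). With quantile normalization it also called 0 (1092 and 1034 at an unadjusted p under 0.05, lowest adjusted p 0.073). The direction was the same as in the first fit for 333 and 334 of the 334 called regions. Those regions were chosen on the same 4 libraries, so their direction here is no independent check. The counts also depended on single libraries, with 49 higher and 69 lower without CBP replicate 2, 67 and 85 without CBP replicate 1, and 294 and 225 without WT replicate 2.

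The region with the largest fall in CBP lay inside RERG, a Ras-like inhibitor of cell growth, on chromosome 5 from 57415702 to 57416564. It had 64 and 56 summit reads in WT and 15 and 17 in CBP, a log2 difference of -1.79 (SE 0.21, limma adjusted p = 0.0082). Both WT values were above both CBP values, and the adjusted p was 0.095 with the authors' fold and 0.073 with quantile normalization. Inside RBMS3, an RNA-binding protein, a region on chromosome 13 from 16212275 to 16212992 had 49 and 48 reads in WT and 20 and 15 in CBP. A region 7432 bp from B3GLCT, a glycosyltransferase, on chromosome 11 from 7784054 to 7784728, had 41 and 35 in WT and 19 and 12 in CBP.

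Among the regions higher in CBP was one inside NTM, the cell adhesion protein neurotrimin, on chromosome 9 from 58094739 to 58095639. It had 14 and 15 reads in WT and 28 and 29 in CBP, a log2 difference of 1.09 (SE 0.18, limma adjusted p = 0.0160), and both CBP values were above both WT values. The limma adjusted p was 0.133 with the authors' fold and 0.084 with quantile normalization. The log2 difference was 1.33 without CBP replicate 1 and 0.85 without CBP replicate 2.

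Of the 175 regions at the genes chosen for naming, 3 passed this test (1.71%), each lower in CBP, while 3.29% of all 10145 regions and 3.15% of all regions tested passed it in either direction. Both SPRY1 regions described above were among them, with log2 differences of -0.99 (SE 0.15, limma adjusted p = 0.0120) and -0.69 (SE 0.16, limma adjusted p = 0.0402). The third was at CNTN3, on chromosome 13 from 56005349 to 56006003, with 31 and 34 reads in WT and 21 and 17 in CBP (log2 difference -0.67, limma adjusted p = 0.0402). None of the 3 passed with the authors' fold or with quantile normalization. At PAX7 and MET, which passed at no region, the log2 differences ran from -0.01 to 0.27 and from -0.19 to 0.51.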

How the data were processed

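ATAC-seq peak lists of 8 libraries were used, 2 for each label and time. The submitters' processing notes name Trimmomatic for trimming, MACS2 2.1.0 for peak calling and the build Sscrofa11.1. Not given in the sources used here are the aligner, the treatment of duplicate reads and whether reads were shifted for the transposase, which could change peak heights and edges. One list per library was deposited, so replicates were not pooled. Every peak carries 4 values that the authors' peak caller computed: a fold over the local background (a ratio), the p-value and the q-value as −log10, and a score. The deposited lists hold no read totals.

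Fold and p-value were solved together for the whole number of reads at each summit, with success in 100% of peaks (tolerance 0.01 on −log10 p). Relative depth was read from each list's commonest background value. Regions, rules and links were computed with Python 3.11.15, pandas 2.3.3 and scipy 1.17.1, and CBP was compared with WT at 0 h with limma 3.58.1 in R 4.3.3 on log2 summit reads, without a replicate block. Scripts were tested on simulated data. Gene positions came from the RefSeq table for Sscrofa11.1. Of 290 entries in 17 gene lists, 280 matched a gene. No genome sequence was used here, so no sequence or motif is given.

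The regions and gene lists were chosen with earlier results of these data known. Named were the 10 strongest regions, the 12 genes with the most regions, up to 4 genes per list with the most regions, 12 genes of fixed interest (PAX7, MYF5, MYOD1, MYOG, MYF6, MET, FGFR1, NOTCH3, HEY1, CCND1, CREBBP and EP300), and up to 5 regions in each direction between CBP and WT, by size of change. One of these regions is not reported here. A single value of 2 libraries against 2 cannot pass an exact permutation test at 0.05. Alternatives used a −log10 q of at least 5, a fold of at least 4, equal peak numbers, calls over 50% of a region, links within 10 kb, gene ends within 5 kb, other scalings and each library left out. Scaling the lists to 1 depth, and measuring gene ends from the region centre, were chosen after seeing the data.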

Additional observations from a re-analysis of the deposited data

How the results depend on the processing

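The number of regions open only in proliferation was 10145 as deposited, 5602 with a fold of at least 4 and 2492 with equal peak numbers. Its other alternatives, including each library left out, stayed within 1.5 times of it, but a −log10 q of at least 5 gave 12064 regions of which 5633 overlapped the original ones, and calls over 50% of a region gave 14153 of which 5629 did. Gene-end shares were 4.48% as reported, 3.12% from the region centre, 15.9% within 5 kb and 3.61% with equal peak numbers, each below that of kept regions where both were computed. Inside genes lay 51.1% under the stricter q, and the share between genes 44.8% with equal peak numbers. Linked regions numbered 2615 within 10 kb and 1465 with equal peak numbers, where all 17 list counts moved by more than 1.5 times, since fewer regions were counted.

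For CBP against WT at 0 h, limma with the authors' fold and with quantile normalization gave 0 higher and 0 lower. Leaving out 1 library, with the lone library taken to vary like the other group, gave 49 to 294 higher and 69 to 225 lower, the lowest of each without CBP 0 h replicate 2. Without CBP 0 h replicate 1 it gave 67 and 85, and without WT 0 h replicate 2, 294 and 225. With a replicate block the counts were 503 higher and 371 lower. Deviations of same-numbered WT and CBP libraries correlated at r = -0.03 over 90579 regions, so no shared deviation was seen. Whether same-numbered libraries were prepared together is not stated. The planned windows of sequence were not run. Weak peaks limit the reading of absence at 60 h, as no value below a list's threshold is given.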

Other observations

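Further genes among the 12 with the most regions open only in proliferation had 26 to 32 linked regions each. ARID5B, a DNA-binding protein of the AT-rich interaction family, and DISP1, which releases Hedgehog ligands from cells, had 5 of 26 linked regions each. The most accessible of the ARID5B regions in WT, on chromosome 14 from 65562041 to 65563044 inside the gene, had 78 and 74 summit reads in WT and 66 and 52 in CBP. All 5 regions of MAP4K4, a kinase upstream of JNK, lay inside the gene, with 17 to 71 reads. GFOD1 had 5 of 27, of which that on chromosome 7 from 9725476 to 9726437 had 60 and 72 reads in WT and 44 and 42 in CBP. With equal peak numbers ARID5B and GFOD1 had 3 each, MAP4K4 1 and DISP1 0.

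Some genes, picked out after their values were seen, had most of their regions called in all 4 libraries at 0 h among those open only in proliferation. NDUFS4, a subunit of respiratory complex I, and GPATCH2L had 4 of 6, and the homeobox gene GSX2 and the forkhead gene FOXB1 had 3 of 5. Groups of 4 regions within gaps of 20 kb lay at ADGRB3, an adhesion receptor (chromosome 1, 49669180 to 49715592), HIP1, an endocytic adaptor (chromosome 3, 10420210 to 10456739), and EVI5, a regulator of RAB11 (chromosome 4, 124482187 to 124516157).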
